A study of Mus musculus with 9 samples.

Results

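The carboxylesterase genes of the mouse were followed here through 10 members, Ces1d, Ces1e, Ces1f, Ces1g, Ces2a, Ces2b, Ces2c, Ces2e, Ces2f and Ces2g. They were taken by gene symbol from a table of 54146 genes, and they belong to the Ces1 cluster (4 members) and the Ces2 cluster (6 members) on chromosome 8. RNA was measured by RNA sequencing of the colon in 9 C57BL/6J mice at 15 wk of age. The labels call the tissue colonic mucosa, while the study's methods name colonic crypts as the source of the RNA. All 9 mice carried ApcMin/+, a germline mutation of 1 allele of the tumor suppressor gene Apc, which gives intestinal adenomas. In 4 of them, the ApcMin/+; p16cis/cis mice, both alleles of p16 also carried a knocked-in cis-element that draws DNA methylation to the p16 promoter. The 5 ApcMin/+ mice (2 females and 3 males) served as controls for the 4 ApcMin/+; p16cis/cis mice (3 females and 1 male), and each mouse was 1 replicate. The cis-element is in the germline and is not limited to the colon or to epithelial cells.

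Carboxylesterases are serine hydrolases of the endoplasmic reticulum lumen, where a retention signal at the end of the protein holds most of them. They split esters, amides and thioesters, and so take part both in the clearance of drugs and other foreign compounds and in the turnover of acylglycerols, steryl esters and retinyl esters. Humans have CES1, best known from the liver, and CES2, best known from the intestine, where it hydrolyzes prodrugs such as irinotecan, while the mouse has a row of duplicated genes in place of each.

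All 10 members passed the filter on low values, which kept a gene where 4 or more mice reached a normalized count of 10 (14410 genes). A normalized count is a gene's read count divided by a size factor of its library. The libraries held 13523500 to 17885918 reads on genes. Cdkn2a, which encodes p16, was listed at 0 reads in all 9 mice, so it gave no check of the genotype labels (3 reads correspond to 2.85 to 4.79 normalized counts). Mitochondrially encoded genes took 8.74% to 15.6% of the reads in ApcMin/+ mice against 19.3% to 29.8% in ApcMin/+; p16cis/cis mice, so this share and genotype cannot be told apart. Markers of absorptive colonocytes (20 of 20) and of goblet cells (11 of 11) passed the same filter. Of the markers of adipocytes, which express Ces1d in fat depots, Lep was at 0 in every mouse and Adipoq was at 1.25 ± 0.88 normalized counts (mean ± SD, n = 5) in ApcMin/+ mice against 1.99 ± 3.99 (n = 4) in ApcMin/+; p16cis/cis mice. Of the 10 adipocyte markers 3 passed the filter, and all 3 had a log2 fold change below 0 (median -0.58). The summed level of the list was 226.3 to 281 normalized counts in ApcMin/+ mice against 108 to 226.0 in ApcMin/+; p16cis/cis mice.

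Of the 10 members, 6 were lower in ApcMin/+; p16cis/cis mice than in ApcMin/+ mice at an adjusted p-value under 0.05, against 8.75% of all genes tested, and 0 were higher, against 8.14% of all genes. The members that fell were Ces2a, Ces2b, Ces2c and Ces2e of the Ces2 cluster and Ces1f and Ces1g of the Ces1 cluster. The fold exceeded 2 for Ces2b, Ces2c, Ces2e and Ces1g, 4 of 10 members against 1.64% of all genes. In 4 members (Ces2a, Ces2b, Ces2c and Ces2e) every ApcMin/+; p16cis/cis mouse was below every ApcMin/+ mouse, which held for 8.95% of all genes. The median log2 fold change was -0.98 over the members and -0.00 over all genes tested. The test was limma on log2(normalized count + 1), with p-values adjusted by Benjamini-Hochberg over all genes tested. No member was higher at an unadjusted p-value under 0.05 (0 of 10), nor at an adjusted p-value under 0.05 by DESeq2 or edgeR (0 each). A fit with the percentage of mitochondrial reads as a further term was added after seeing the data. With it 0 of 10 members passed by limma in either direction (1 lower, Ces2b, and 1 higher, Ces2g, at an unadjusted p-value under 0.05). Of all 14410 genes 0 passed in that fit either, and 798 were at an unadjusted p-value under 0.05. In that fit the log2 fold change of Ces2b was -1.91 (SE 0.48), those of Ces2a, Ces2c, Ces2e and Ces1g were -0.57, -0.70, -0.66 and -0.51 (SE 0.36 to 0.53), and that of Ces1f was -0.12 (SE 0.35). Ces1d was at 0.24 (SE 0.60), the opposite sign to its value without the covariate, and Ces2g at 0.89 (SE 0.31). In bulk RNA, fewer cells of a type and less RNA per cell cannot be told apart.

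**Figure D1:**
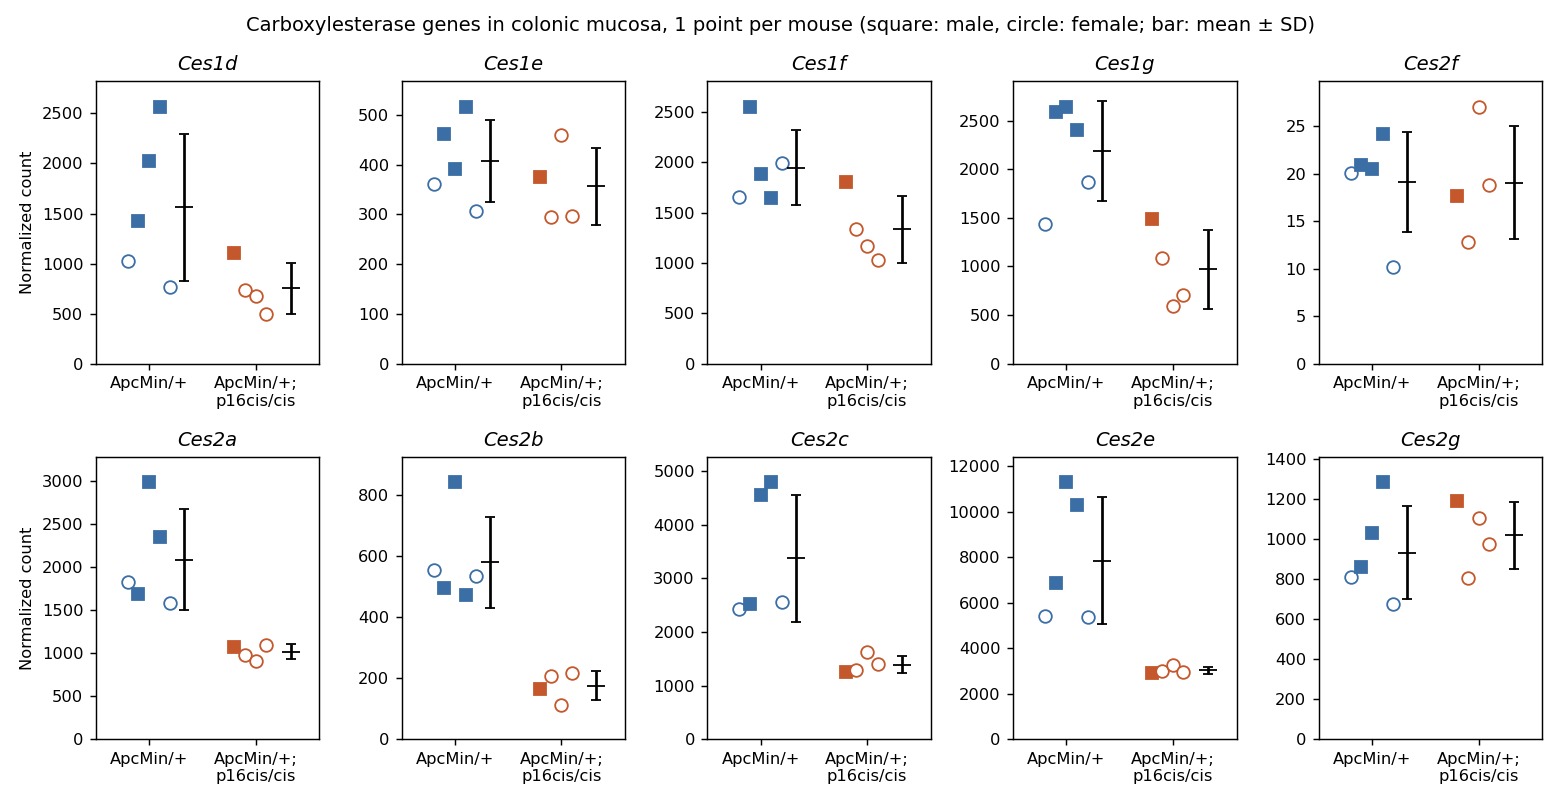
Normalized count of each member (y axis, linear and starting at 0) in the 5 ApcMin/+ mice (blue) and the 4 ApcMin/+; p16cis/cis mice (orange), with filled squares for males, open circles for females and a black bar for the mean ± SD. The genotypes do not overlap for Ces2a, Ces2b, Ces2c and Ces2e, and they overlap for the other 6 members.

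The Ces2 cluster was examined first. In the GENCODE annotation of GRCm38 its genes span 287 kb of chromosome 8, from 104734003 to 105021178, and the 6 members are all protein-coding genes on the plus strand, in the order Ces2a, Ces2b, Ces2c, Ces2e, Ces2f and Ces2g. Each has 12 exons except Ces2f, which has 13. RefSeq promoter windows (GRCm38.p6, 250 bases before to 50 bases after the gene start) were at hand for 7 of the 10 members, among them Ces2a, Ces2c, Ces2e, Ces2f and Ces2g. Those windows are shown because members of this cluster differed in their response to genotype. Capitals mark CAAAGT, the core of sites for nuclear receptors such as HNF4A, which reads ACTTTG where it lies on the other strand, AGGTCA, the half-site of many nuclear receptors, and TTTATG, bound by CDX factors. They lie at chr8:104733753-104734052, chr8:104846818-104847117, chr8:104926010-104926309, chr8:104947106-104947405 and chr8:104961468-104961767 on the plus strand.
Ces2a: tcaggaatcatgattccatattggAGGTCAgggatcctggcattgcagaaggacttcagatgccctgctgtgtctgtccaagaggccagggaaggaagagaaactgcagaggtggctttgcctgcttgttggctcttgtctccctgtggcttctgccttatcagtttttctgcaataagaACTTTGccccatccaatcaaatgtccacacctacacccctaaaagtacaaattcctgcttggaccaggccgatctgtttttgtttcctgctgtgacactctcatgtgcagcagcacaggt
Ces2c: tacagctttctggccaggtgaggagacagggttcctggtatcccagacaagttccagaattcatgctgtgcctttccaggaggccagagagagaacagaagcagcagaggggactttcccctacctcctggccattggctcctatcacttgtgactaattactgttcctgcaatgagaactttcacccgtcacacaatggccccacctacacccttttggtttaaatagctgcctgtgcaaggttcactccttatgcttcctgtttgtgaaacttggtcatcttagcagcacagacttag
Ces2e: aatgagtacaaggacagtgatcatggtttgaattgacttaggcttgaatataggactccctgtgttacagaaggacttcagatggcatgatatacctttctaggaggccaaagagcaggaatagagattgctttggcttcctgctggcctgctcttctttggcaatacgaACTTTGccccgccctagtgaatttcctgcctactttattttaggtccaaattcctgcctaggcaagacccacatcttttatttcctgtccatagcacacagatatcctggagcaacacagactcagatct
Ces2f: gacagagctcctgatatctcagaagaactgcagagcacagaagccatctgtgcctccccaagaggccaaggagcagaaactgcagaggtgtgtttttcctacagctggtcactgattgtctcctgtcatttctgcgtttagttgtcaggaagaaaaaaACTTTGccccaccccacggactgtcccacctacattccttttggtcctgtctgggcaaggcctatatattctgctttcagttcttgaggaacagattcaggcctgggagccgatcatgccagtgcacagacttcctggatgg
Ces2g: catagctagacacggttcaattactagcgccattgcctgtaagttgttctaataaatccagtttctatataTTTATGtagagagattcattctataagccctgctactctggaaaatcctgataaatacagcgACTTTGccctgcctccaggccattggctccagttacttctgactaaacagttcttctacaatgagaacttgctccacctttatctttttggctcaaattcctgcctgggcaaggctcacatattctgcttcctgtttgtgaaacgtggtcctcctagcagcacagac

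CAAAGT, searched on both strands, was found in the windows of Ces2a, Ces2e, Ces2f and Ces2g, at 70, 80, 92 and 117 bases before the start, and in 14.4% of all 32544 RefSeq promoter windows of that length. It was not found in the window of Ces2c. Of the members with these letters, Ces2a and Ces2e fell, while Ces2f and Ces2g did not pass the test, Ces2f with only 8 to 22 reads per mouse. Ces2c, without the letters, fell as well. Ces2b, which had the largest drop, had no window at hand. A link between the letters and the response to genotype was not tested. AGGTCA was found in Ces2a alone among the 7 members with a window, and in 16.2% of all windows. TTTATG was found in Ces2g, Ces1e and Ces1g, and in 11.9% of all windows. TATAAA was found in Ces1g alone among the 7 (13.6% of all windows). A match of letters is a description of the window and does not show that a factor binds there. Ces2a and Ces2c had the most alike windows, with 65.4% of aligned positions identical, and identities between the other Ces2 windows ran from 47.3% to 60.7%.

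Ces2e, named a pyrethroid hydrolase for its action on ester insecticides, was the member with the highest level (chromosome 8, 104926260 to 104934672). Its normalized counts were 5413, 6852, 11287, 10318 and 5387 in ApcMin/+ replicates 1 to 5 and 2936, 3015, 3253 and 2958 in ApcMin/+; p16cis/cis replicates 1 to 4. Every ApcMin/+; p16cis/cis mouse was below the lowest ApcMin/+ mouse, and the ApcMin/+; p16cis/cis mice lay close together (3040 ± 146, SD, n = 4) while the ApcMin/+ mice spread widely (7851 ± 2780, n = 5). Ces2e fell 2.46-fold, a log2 fold change of -1.30 (SE 0.21, limma adjusted p = 0.00404).

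Ces2c, an acylglycerol hydrolase of liver and small intestine, lies at 104847068 to 104854483. It was at 2434, 2529, 4553, 4785 and 2552 normalized counts in the ApcMin/+ mice and at 1256, 1292, 1626 and 1404 in the ApcMin/+; p16cis/cis mice. As for Ces2e, ApcMin/+ replicates 3 and 4 stood above the other 3, and no ApcMin/+; p16cis/cis mouse reached the ApcMin/+ range. Ces2c fell 2.31-fold (log2 fold change -1.21, SE 0.21, limma adjusted p = 0.00547).

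Ces2a, a hydrolase of diacylglycerols and lysophospholipids, is the first gene of the cluster (104734003 to 104741634). Its values were 1823, 1683, 2980, 2353 and 1578 normalized counts in ApcMin/+ mice against 1076, 979, 915 and 1097 in ApcMin/+; p16cis/cis mice. The groups did not overlap, and the drop of 1.99-fold stayed just under a 2-fold change (log2 fold change -0.996, SE 0.17, limma adjusted p = 0.00501).

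Ces2b, at 104831572 to 104840093, showed the largest drop of the 10 members. It was at 552, 496, 840, 472 and 536 normalized counts in ApcMin/+ mice against 165, 206, 113 and 218 in ApcMin/+; p16cis/cis mice. The highest ApcMin/+; p16cis/cis mouse was below the lowest ApcMin/+ mouse, and ApcMin/+ replicate 3 stood above the rest. Ces2b fell 3.32-fold (log2 fold change -1.73, SE 0.22, limma adjusted p = 0.00172).

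Ces2g and Ces2f, the last 2 members along the cluster, gave values that overlapped between genotypes. Ces2g (104961718 to 104969537) was at 809, 861, 1032, 1283 and 678 normalized counts in ApcMin/+ mice against 1190, 807, 1106 and 974 in ApcMin/+; p16cis/cis mice. The log2 fold change of Ces2g was 0.15 (SE 0.18, 95% interval -0.24 to 0.53, limma adjusted p = 0.601), so the interval held no decrease as large as that of any Ces2 member that fell. Ces2f (104947356 to 104960047) was at 20.1, 20.9, 20.5, 24.2 and 10.2 normalized counts in ApcMin/+ mice against 17.7, 12.8, 27.05 and 18.8 in ApcMin/+; p16cis/cis mice. With 8 to 22 reads per mouse its log2 fold change of -0.00 had a 95% interval of -0.77 to 0.76 (limma adjusted p = 0.996). Changes within that interval, in either direction, were not excluded.

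**Figure D2:**
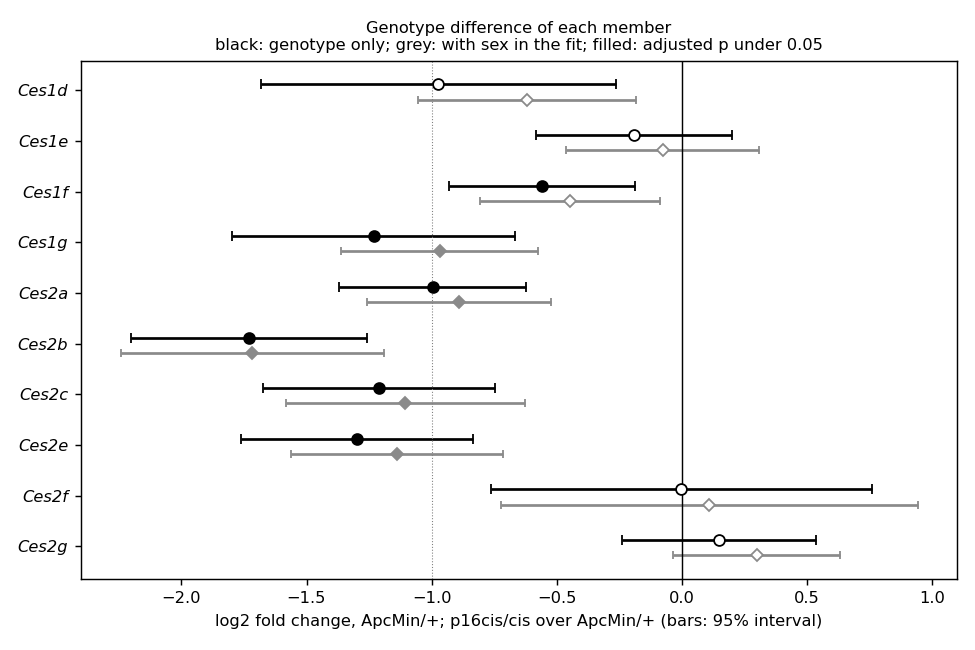
Log2 fold change of each member, ApcMin/+; p16cis/cis over ApcMin/+ mice, with its 95% interval (x axis), from the fit with genotype alone (black circles) and with sex added (grey diamonds). Filled symbols passed an adjusted p-value of 0.05. The values run from -1.73 for Ces2b to 0.15 for Ces2g in the fit with genotype alone, and Ces1f is filled in that fit only.

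Whether the Ces2 members moved apart from each other was tested on their ratios within each mouse, which do not depend on how libraries are scaled. Over the 15 pairs of Ces2 members and the 6 pairs of Ces1 members, 11 of 21 ratios differed between genotypes by an exact two-sided permutation test over mice, with p-values adjusted by Benjamini-Hochberg over the 21 pairs. The 8 ratios of Ces2a, Ces2b, Ces2c or Ces2e to Ces2f or Ces2g were all among them, and in each of these 8 the genotypes did not overlap. These 8 were grouped by the calls of single members in the same mice, and each log2 difference follows from the fold changes of both members. They therefore add no independent support to those calls. The ratios to Ces2f rest on its 8 to 22 reads. Sex was left out of the permutations, and no share over other gene pairs was counted. The ratio of Ces2e to Ces2g was 6.69 to 10.9 in ApcMin/+ mice against 2.47 to 3.74 in ApcMin/+; p16cis/cis mice, a difference of -1.45 on the log2 scale (exact permutation p = 0.00794, the smallest that 126 arrangements allow, adjusted p = 0.0238 over the pairs). The ratio of Ces2b to Ces2g was 0.368 to 0.814 in ApcMin/+ mice and 0.102 to 0.255 in ApcMin/+; p16cis/cis mice (log2 difference -1.88, same p-values). Among the members that fell, Ces2a to Ces2b also differed (log2 difference 0.74, exact permutation p = 0.0238, adjusted p = 0.0455), with ratios of 2.94 to 4.99 against 4.76 to 8.12 that overlapped. The ratio of Ces2c to Ces2e was 0.369 to 0.474 in ApcMin/+ mice against 0.428 to 0.500 in ApcMin/+; p16cis/cis mice, and the log2 difference of 0.09 did not pass (exact permutation p = 0.365). For Ces2f to Ces2g the log2 difference was -0.15 (exact permutation p = 0.516).

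**Figure D3:**
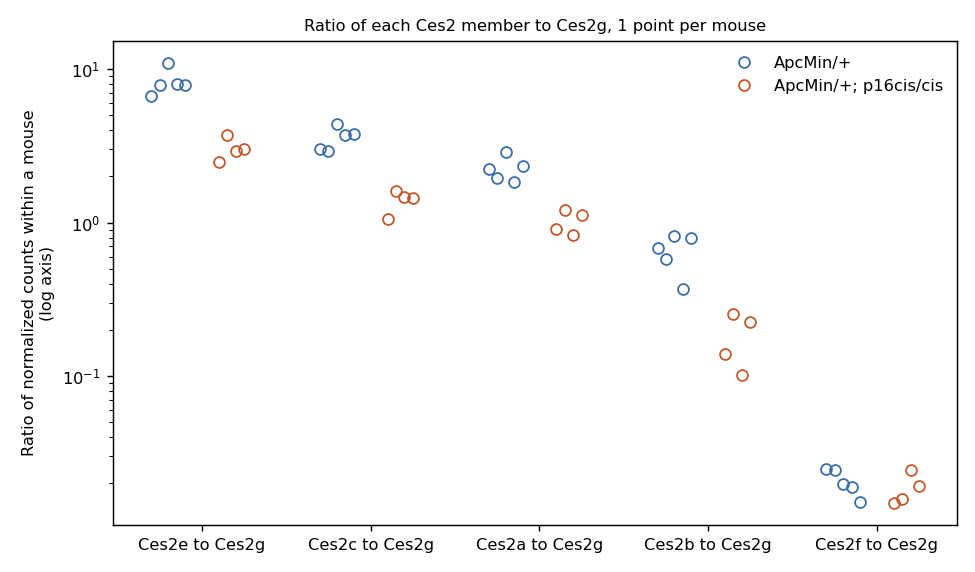
Ratio of each of 5 Ces2 members to Ces2g within a mouse (y axis, log scale, no unit), 1 point per mouse, blue for ApcMin/+ and orange for ApcMin/+; p16cis/cis. The genotypes are apart for Ces2e, Ces2c, Ces2a and Ces2b, and they overlap for Ces2f, at 0.0151 to 0.0248 against 0.0149 to 0.0245.

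Summed over its 6 members, the Ces2 cluster was at 14836 ± 4762 normalized counts (SD, n = 5) in ApcMin/+ mice against 6665 ± 298 (n = 4) in ApcMin/+; p16cis/cis mice, with ranges of 10740 to 20713 and 6312 to 7040. As a share of all reads the sum went from 0.0814% ± 0.0256 to 0.0318% ± 0.0026. The makeup of the sum follows from the changes of its single members, so it adds no independent support to them. Ces2g made up 6.44% ± 0.89 of it in ApcMin/+ mice against 15.3% ± 2.1 in ApcMin/+; p16cis/cis mice, and Ces2e 52.5% ± 2.7 and 45.6% ± 1.7. The share of Ces2a was 14.3% ± 1.6 and 15.3% ± 1.6, within the spread between mice.

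The Ces1 cluster holds genes for hydrolases of stored triacylglycerol and of foreign esters. Its 4 members lie on the minus strand of chromosome 8 between 93166068 and 93337308, have 14 exons each and are protein-coding genes. Ces1g, a carboxylesterase that limits lipid synthesis and lipoprotein output in the liver, lies at 93302369 to 93337308. It was at 1439, 2584, 2642, 2402 and 1872 normalized counts in ApcMin/+ mice against 1489, 1088, 591 and 710 in ApcMin/+; p16cis/cis mice. Only ApcMin/+; p16cis/cis replicate 1, the male of that group, reached into the ApcMin/+ range, and it passed only ApcMin/+ replicate 1, a female. Ces1g fell 2.35-fold (log2 fold change -1.23, SE 0.26, limma adjusted p = 0.0104).

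Ces1f, a triacylglycerol hydrolase found at lipid droplets, lies at 93256236 to 93279747. Its values were 1659, 2552, 1887, 1649 and 1994 normalized counts in ApcMin/+ mice against 1802, 1334, 1168 and 1034 in ApcMin/+; p16cis/cis mice. Again ApcMin/+; p16cis/cis replicate 1 alone reached the ApcMin/+ range. Ces1f fell 1.47-fold (log2 fold change -0.56, SE 0.17, limma adjusted p = 0.0427), and the call was lost with sex in the fit (log2 fold change -0.45, SE 0.16, limma adjusted p = 0.103). In females only the value was -0.63 (SE 0.16, limma adjusted p = 0.0523).

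Ces1d, a triacylglycerol hydrolase that mobilizes stored fat in liver and adipose tissue, lies at 93166068 to 93197838. It was at 1027, 1423, 2025, 2566 and 765 normalized counts in ApcMin/+ mice against 1106, 737, 678 and 497 in ApcMin/+; p16cis/cis mice. The genotypes overlapped, and the spread among ApcMin/+ mice was the widest of the Ces1 members (1561 ± 736, SD, n = 5). The log2 fold change was -0.97 (SE 0.33, limma adjusted p = 0.0598), and it was past the threshold by DESeq2 (adjusted p = 0.00728) and by edgeR with TMM (adjusted p = 0.0469).

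Ces1e, known as egasyn because it holds beta-glucuronidase in the endoplasmic reticulum, lies at 93201218 to 93229619. It was at 360, 462, 391, 516 and 306 normalized counts in ApcMin/+ mice against 375, 295, 458 and 298 in ApcMin/+; p16cis/cis mice, and the ranges overlapped. The log2 fold change was -0.19 (SE 0.18, 95% interval -0.58 to 0.20, limma adjusted p = 0.496).

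Within the Ces1 cluster, 2 of the 6 ratios differed between genotypes. Ces1e to Ces1g was 0.148 to 0.250 in ApcMin/+ mice against 0.252 to 0.776 in ApcMin/+; p16cis/cis mice (log2 difference 1.04, exact permutation p = 0.00794, adjusted p = 0.0238). Ces1f to Ces1g was 0.686 to 1.15 against 1.21 to 1.98 (log2 difference 0.67, exact permutation p = 0.0159, adjusted p = 0.0333). Sex was not part of these ratio tests, and the sexes were uneven between the genotypes. The male minus female log2 difference was 0.75 for Ces1g, 0.33 for Ces1e and 0.32 for Ces1f. Their limma adjusted p-values were 0.584, 0.992 and 0.992. Whether either ratio differed by sex, and the part of sex in the genotype differences of the ratios, was not tested. The summed level of the 4 members was 6105 ± 1283 normalized counts (SD, n = 5) in ApcMin/+ mice against 3414 ± 980 (n = 4) in ApcMin/+; p16cis/cis mice, with ranges of 4486 to 7134 and 2538 to 4772 that overlapped.

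Levels of different members were compared as normalized count per kb of transcript. In ApcMin/+ mice the order of the means was Ces2e, Ces2c, Ces2a, Ces1f, Ces1g, Ces1d, Ces2g, Ces1e, Ces2b and Ces2f. Ces2e was at 2909 ± 1030 per kb (SD, n = 5), Ces2c at 1711 ± 603, and Ces2f, the lowest, at 10.5 ± 2.9. In ApcMin/+; p16cis/cis mice (n = 4) Ces1f at 693 ± 174 per kb stood above Ces2a at 519 ± 43, which was the one exchange of places between the genotypes. Neighbors in the order mostly overlapped in range. In ApcMin/+ mice only Ces2b and Ces2f were apart, and in ApcMin/+; p16cis/cis mice Ces2e was apart from Ces2c, Ces2g from Ces1e, Ces1e from Ces2b and Ces2b from Ces2f. Within single mice Ces2e was above Ces2c in all 5 ApcMin/+ mice and all 4 ApcMin/+; p16cis/cis mice. Ces2a and Ces1f changed places between mice, with Ces2a higher in 3 of 5 ApcMin/+ mice and Ces1f higher in 3 of 4 ApcMin/+; p16cis/cis mice.

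**Figure D4:**
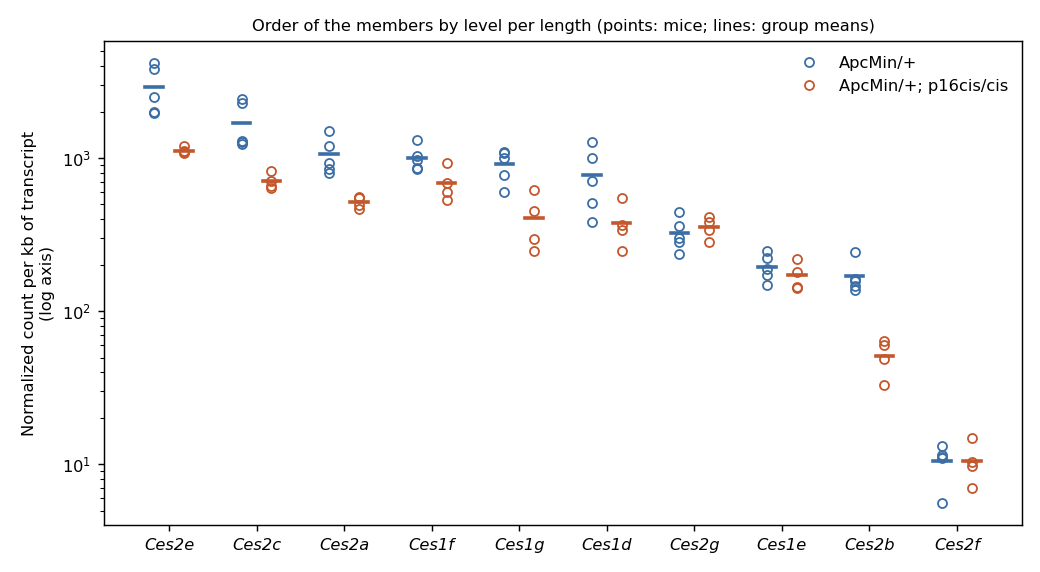
Normalized count per kb of transcript (y axis, log scale) for the 10 members, in the order of their means in ApcMin/+ mice, with 1 point per mouse and a line at each group mean. Ces2e is highest in both genotypes at 2909 and 1126 per kb, and Ces2f is lowest at 10.5 in both.

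Sex was uneven between the genotypes, so it was read for each member. In the fit with genotype and sex the male minus female difference was above 0 on the log2 scale for 10 of 10 members, with a median of 0.32 against 0.00 over all genes tested. It was largest for Ces1d (1.01, SE 0.20) and Ces1g (0.75, SE 0.18). At an unadjusted limma p-value under 0.05 there were 4 members (Ces1d, Ces1g, Ces2e and Ces2g), and after adjustment over all genes 0 of 10 passed in either direction, against 0.0486% of all genes (Ces1d adjusted p = 0.272). All 3 ApcMin/+ males were above both ApcMin/+ females in 6 members, and the ApcMin/+; p16cis/cis male was above the 3 females of its group in 4 members (Ces1d, Ces1f, Ces1g and Ces2g). The share of all genes with these orders, or at that unadjusted p-value, was not counted. These counts are therefore not read as a trait of the members. With sex in the fit the genotype difference of Ces1d was -0.62 (SE 0.20, limma adjusted p = 0.0685) and that of Ces2e was -1.14 (SE 0.19, limma adjusted p = 0.00976). In females only (2 against 3 mice), Ces1g and the 4 Ces2 members that fell passed again, with adjusted p-values from limma of 0.0153 to 0.0385. Their log2 fold changes in females were -1.66 for Ces2b, -1.09 for Ces1g, -0.81 for Ces2e, -0.80 for Ces2c and -0.77 for Ces2a (SE 0.13 to 0.29), so the drops of Ces2c and Ces2e were then less than 2-fold. With sex in the fit Ces1g was at -0.97 (SE 0.18, limma adjusted p = 0.0129), also less than 2-fold. When genotype was permuted within sex, Ces1g, Ces2a, Ces2b, Ces2c and Ces2e each gave an exact permutation p of 0.025, the smallest that the 40 arrangements allow.

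Other carboxylesterase genes were at low levels in this tissue. Of 10 such genes 2 were tested. Ces1b was at 24.9 ± 10.1 normalized counts (SD, n = 5) in ApcMin/+ mice against 50.2 ± 13.7 (n = 4) in ApcMin/+; p16cis/cis mice (log2 fold change 1.04, SE 0.36, limma adjusted p = 0.0643). Ces1c had a log2 fold change of 0.90 (SE 0.53, limma adjusted p = 0.265). So 0 of the 2 were called by limma in either direction, with 1 at an unadjusted p-value under 0.05 and 1 (Ces1b, higher) called by DESeq2. Ces1a was at 0 in all mice, and Ces2h, the next gene of the Ces2 cluster, averaged 7.05 and 4.57 normalized counts.

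Duplicated genes can share reads. Of the 50-base windows along each member's transcript, 1.28% to 9.56% were found letter for letter in a transcript of another gene for 8 of the members, 22.2% for Ces2a and 42.2% for Ces2c. Most of those of Ces2a were shared with Gm7208 (20.9%) and most of those of Ces2c with Ces2d-ps (38.2%), both pseudogenes beside them on chromosome 8. Neither pseudogene took many reads, with at most 2.53 normalized counts for Gm7208 and 4.88 for Ces2d-ps in any mouse. Gm8798, a transcribed pseudogene between Ces2c and Ces2e that shares 18.9% of the windows of Ces2c, was at 52.3 ± 11.6 normalized counts (SD, n = 5) in ApcMin/+ mice against 27.2 ± 9.9 (n = 4) in ApcMin/+; p16cis/cis mice (log2 fold change -0.95, SE 0.30, limma adjusted p = 0.0472). How the authors' counting split such reads was not tested, so the levels of Ces2a, Ces2c and these pseudogenes are uncertain, by an amount that was not measured.

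**Figure D5:**
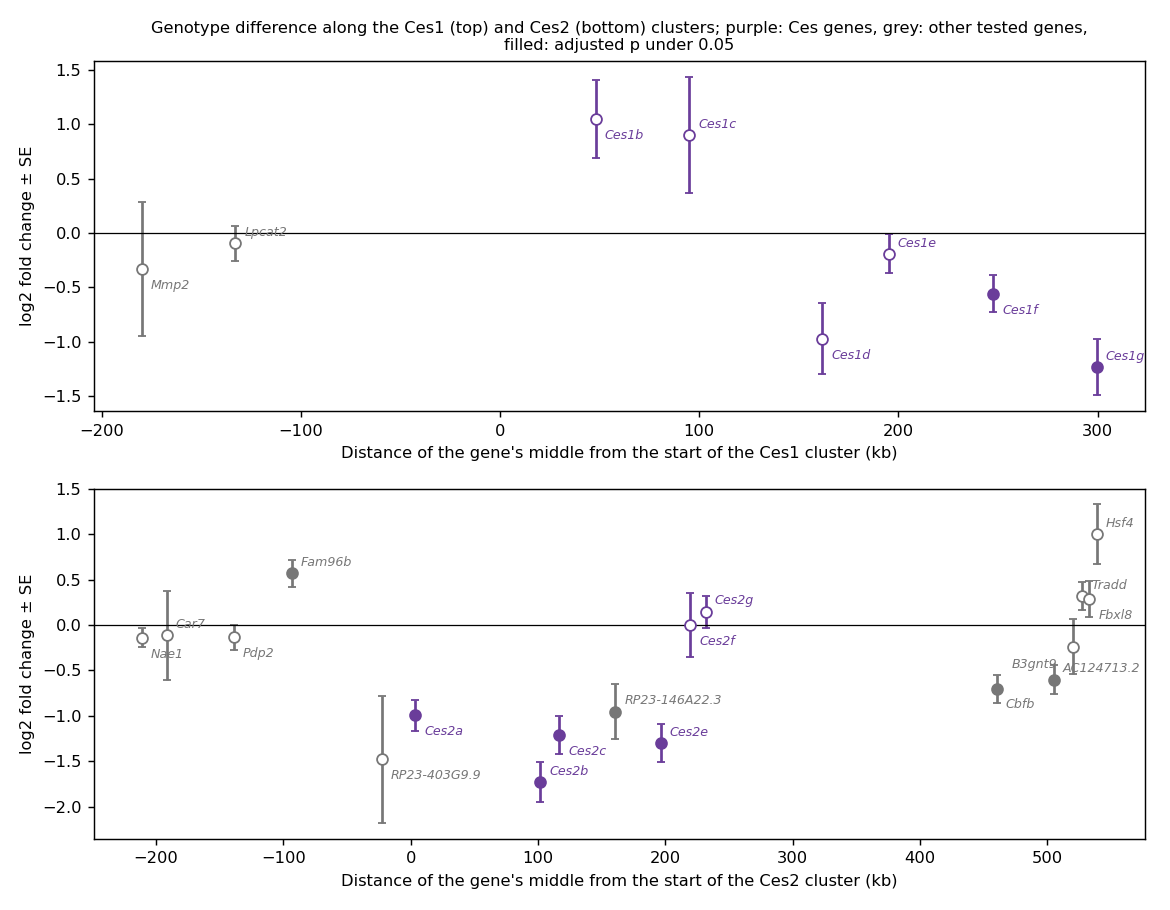
Log2 fold change ± SE (ApcMin/+; p16cis/cis over ApcMin/+ mice, y axis) against the distance of each tested gene's middle from the start of the Ces1 cluster (top) or the Ces2 cluster (bottom), in kb, with Ces genes in purple, other genes in grey and filled circles for an adjusted p-value under 0.05. Ces2a, Ces2b, Ces2c and Ces2e are filled, and Ces2f and Ces2g, next in line, lie near 0.

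Other genes beside the clusters were read within 250 kb of either end. Around the Ces1 cluster 2 of 15 such genes were tested, and 0 were called by limma or DESeq2 (0 also at an unadjusted p-value under 0.05). The nearest was Lpcat2, at a distance of 100.9 kb, with a log2 fold change of -0.09 (SE 0.16, limma adjusted p = 0.718). Around and within the Ces2 cluster 12 of 33 were tested, with 3 lower (Gm8798, Cbfb and AC124713.2) and 1 higher (Fam96b), and a median log2 fold change of -0.14. The shares over all genes tested were 8.75% lower and 8.14% higher. Gm8798 lies within the cluster and shares 18.9% of the windows of Ces2c. Whether it took reads of Ces2c was not tested. Before the cluster the nearest tested gene was Gm5159, listed as RP23-403G9.9, a transcribed pseudogene 13.0 kb away (log2 fold change -1.48, SE 0.70, limma adjusted p = 0.161). After it the nearest was Cbfb, a partner of RUNX factors 149.5 kb away (log2 fold change -0.70, SE 0.15, limma adjusted p = 0.0123).

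The wider setting of ester metabolism was read from lists. Of 41 other ester and lipid hydrolases tested, 12 were lower and 3 higher, with a median log2 fold change of -0.19 against -0.00 over all genes. Over all genes tested 8.75% were lower and 8.14% higher, which holds for the lists that follow as well. Mgll, which splits monoacylglycerol, went from 1731 ± 789 normalized counts (SD, n = 5) to 557 ± 145 (n = 4), a log2 fold change of -1.55 (SE 0.30, limma adjusted p = 0.00754). Lypla1, which removes fatty acids from lysophospholipids and proteins, went from 2351 ± 284 to 1017 ± 80 (log2 fold change -1.20, SE 0.11, limma adjusted p = 0.000546). Others that fell were Abhd3 (-1.15), Lipa, the lysosomal acid lipase (-0.91), Ephx2, the soluble epoxide hydrolase (-0.85), and Nceh1, a cholesteryl ester hydrolase (-0.79). Those that rose were Lypla2 (0.54), Ephx1, the microsomal epoxide hydrolase (0.41), and Faah, which splits fatty acid amides (0.30).

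Of 27 tested genes for the making and export of acylglycerols, steryl esters and retinyl esters, 9 were lower and 0 higher by limma (1 higher at an unadjusted p-value under 0.05, 0 by DESeq2), with a median log2 fold change of -0.36. They included Cidec, a lipid droplet protein (-1.69), Apob, the structural protein of chylomicrons (-1.49), Mttp, which loads lipid onto it (-1.34), Lrat, which makes retinyl esters (-1.20), and Mogat2 (-1.03) and Dgat2 (-1.01), which make diacylglycerol and triacylglycerol. Of 32 transcription factors linked to carboxylesterase genes in other work, 4 were lower and 3 higher, near the shares over all genes (8.75% and 8.14%). Ppara, the receptor that drives fatty acid oxidation, fell from 220 ± 53 normalized counts (SD, n = 5) to 101 ± 32 (n = 4), a log2 fold change of -1.15 (SE 0.25, limma adjusted p = 0.0111). Nr3c1, the glucocorticoid receptor (-0.75), Ppargc1a (-0.59) and Nfe2l2 (-0.48) fell as well, while Nr1h2 (0.60) and Ppard (0.47) were among those that rose. The receptors Kdelr1, Kdelr2 and Kdelr3, which return proteins to the endoplasmic reticulum, gave 0 calls of 3 by limma and by DESeq2 (0 at an unadjusted p-value under 0.05).

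Lists of cell type markers were counted in the same fit, in which 8.75% of all genes were lower and 8.14% higher, and the lists themselves were not tested. Of 20 absorptive colonocyte markers 5 were lower and 0 higher by limma (1 higher at an unadjusted p-value under 0.05 and 1 by DESeq2), with a median log2 fold change of -0.39. The 5 were Slc9a3 (-1.54), Emp1 (-1.39), Slc26a3 (-1.23), Slc51a (-1.13) and Slc26a2 (-0.65). The summed level of the 20 markers was 372997 to 685346 normalized counts in ApcMin/+ mice against 378067 to 533299 in ApcMin/+; p16cis/cis mice. Of 11 tested markers of small intestinal enterocytes, 6 were lower and 0 higher by limma (0 higher at an unadjusted p-value under 0.05 and 0 by DESeq2), with a median of -1.21. Sucrase-isomaltase, Sis, fell from 87.8 ± 10.6 normalized counts (SD, n = 5) to 12.9 ± 8.5 (n = 4), and the summed level of the list was 10437 to 18711 in ApcMin/+ mice against 6736 to 9238 in ApcMin/+; p16cis/cis mice, without overlap. Of 8 genes of the distal Hox clusters, which mark position along the gut, 2 were higher (Hoxd10 at 1.35 and Hoxa10 at 0.43) and 0 lower by limma (0 lower at an unadjusted p-value under 0.05 and 0 by DESeq2). Crypt base and cycling markers gave 3 higher of 14 (Mki67 at 0.92, Rgmb at 0.48 and Ephb2 at 0.35) and goblet cell markers 1 higher of 11 (Spink4 at 1.41). The summed level of immune markers was 216 to 2073 normalized counts in ApcMin/+ mice against 381 to 592 in ApcMin/+; p16cis/cis mice, with 2 of 13 lower (Jchain and Lyz2). Enteroendocrine and tuft cell markers gave 2 lower of 11 (Chgb at -1.11 and Chga at -0.69), stromal markers 1 lower of 11 (Col3a1 at -2.92), and hepatocyte markers 1 higher of 4 (Ttr at 0.63). Median log2 fold changes were -1.04 for immune, -0.96 for stromal, 0.24 for crypt base and cycling, 0.31 for goblet and 0.29 for enteroendocrine and tuft cell markers. At an unadjusted limma p-value under 0.05, 5 immune markers were lower and 1 higher, and 3 stromal markers were lower and 0 higher. Among adipocyte markers 0 of 3 were called by limma or DESeq2 (2 lower at an unadjusted p-value under 0.05), with summed levels of 226.3 to 281 and 108 to 226.0 that did not overlap and that came mostly from Acvr1c. The part of these markers in the drop of the members was not tested.

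The members were also compared in how they varied among mice of the same genotype, as deviations from the genotype means of log2 values over the 9 mice. Ces2c and Ces2e went together most closely (Pearson r = 0.94, Spearman rho = 0.92). Ces2a and Ces2e came next by r (0.85, rho = 0.83), and Ces1e and Ces2f, of different clusters, came next by rho (0.90, r = 0.83), with few reads for Ces2f. Ces1f had r values of -0.40 to -0.06 with the 6 Ces2 members, and Ces2b had r = -0.64 with Ces1e. These are descriptions over 9 mice that share library preparation and the uneven sexes, and no test was made. Genes outside the family were then picked for the highest r, so their high values follow in part from that choice. Among the genes whose deviations were most like those of Ces2e were Fam204a (r = 0.97), Mrps11, Wrap53 and Bcl7c (each r = 0.95). For Ces1f they were Ubr1 (r = 0.97), Wls, Cep41, Fam175b and Fzd4 (r = 0.94 for the last). Of these genes, Wls was lower (log2 fold change -0.40, limma adjusted p = 0.0195) and Mrps11 higher (0.44, limma adjusted p = 0.0379) in ApcMin/+; p16cis/cis mice.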

How the data were processed

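RNA from colonic mucosa of 9 mice was made into BGI libraries (rRNA depletion and oligo dT selection) by the authors, who used BGISEQ-500 sequencing, BOWTIE2, RSEM and DESeq2. The genome build, annotation and tool versions of the RNA-seq are not given in the sources used here. The deposited values are signal, gene counts divided by a size factor per mouse. Each was divided by the value of 1 read, and 100% of the values above 0 were then whole within 0.01 reads, which gave 13523500 to 17885918 reads per mouse. Floors of 3 reads cover counting error only, while the 95% intervals of fold changes come from the limma SE and its degrees of freedom and cover the spread between mice. Size factors computed again were 1.24 to 1.26 times the deposited scale in every mouse.

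The test was limma 3.58.1 (R 4.3.3, trended variances) on log2(value + 1), pseudocount 1, with genotype as the only term, over genes that reached 10 in 4 or more mice. A fold change on this scale understates that of low genes. Alternatives were DESeq2 1.42.0 and edgeR 4.0.16 on the recovered reads, other scalings, filters and thresholds, a sex term, the female mice alone, the replicate block and leaving out each mouse. The mitochondrial share as a covariate, the permutation within sex, the reading of the male minus female difference itself and the ratios were added after seeing the data. Exact permutation tests were two-sided over 126 arrangements of mice. The members and the gene lists were chosen with earlier results of these data known. All 10 members are described. Of each list, genes past the threshold were named by size, at most 6 a list, and beside the clusters the nearest tested gene on each side, with others only where a count was 5 or fewer. Adipocyte markers and pseudogenes were named because a result turned on them, after their values were seen. A few genes that the rule names are not reported here. Of the table's identifiers 54079 matched GENCODE M21 (GRCm38), from which coordinates and transcript lengths come, and 52480 with the same version. Sequences were aligned with Biopython 1.88. The fit was tested on simulated data. The p-values measure the spread between mice.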

Additional observations from a re-analysis of the deposited data

Results flagged for a closer look

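Of 24 groups of values checked for 1 mouse standing far off (each member and each summed cluster level in each genotype), 1 was set apart by the gap to its nearest neighbor, and chance sets apart about 1.2 of 24. Ces2b was at 840 normalized counts in ApcMin/+ replicate 3, a male, against 472 to 552 in the other 4 ApcMin/+ mice. Without that mouse the log2 fold change of Ces2b was -1.59 (limma adjusted p = 0.00633).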

How the results depend on the processing

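Ces1g, Ces2a, Ces2b, Ces2c and Ces2e kept their direction and an adjusted p-value under 0.05 under each of 20 alternative settings, with adjusted p-values of at most 0.0398. Ces1f lost the call in 13 of 20 (adjusted p up to 0.132), among them leaving out ApcMin/+ replicate 2, 3 or 5 (0.0963, 0.0818 and 0.0735) or ApcMin/+; p16cis/cis replicate 2, 3 or 4 (0.0904, 0.0926 and 0.132). Ces1d gained it in 5, among them leaving out ApcMin/+ replicate 5 (0.0235) or ApcMin/+; p16cis/cis replicate 1 (0.0411). The count of members lower was 5 to 7 with 1 mouse left out. Replicate numbers named different mice and did not pair them (mean correlation of deviations 0.02). Under the replicate block 6 members were lower, with Ces1d at an adjusted p of 0.0424 and Ces1f at 0.0571. Over all genes 2434 passed, 2074 under the replicate block and 1183 to 3488 with 1 mouse left out (1353 and 1287 without ApcMin/+ replicates 2 and 3, 1257 and 1183 without ApcMin/+; p16cis/cis replicates 2 and 4). That count was 1437 with sex in the fit, 898 in females only, 501 with a fold over 2 and 27 by Bonferroni. By Bonferroni 0 members passed in limma (7 at an unadjusted p-value under 0.05), and 4 passed in DESeq2. The share of all genes by Bonferroni in DESeq2, or at that unadjusted limma p-value, was not counted. The 7 and the 4 are therefore not read as a trait of the members. With the mitochondrial share as a covariate, added after seeing the data, 0 members and 0 genes passed in limma (798 genes at an unadjusted p-value under 0.05, and of the members 1 lower and 1 higher). The share does not overlap between genotypes, so this fit cannot tell them apart. Depth limits Ces2f, with 8 to 22 reads.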
